A study of Rattus norvegicus with 4 samples.

Results

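Mucins and the other secreted products of goblet and club cells were followed in the lining of the rat middle ear, by RNA sequencing, after MRSA, PA (Pseudomonas aeruginosa), both species or medium had been placed in the ear. The 10 genes were chosen by symbol and comprised MUC1, MUC4, MUC16, MUC5B, MUC5AC, TFF3, SCGB1A1, CLCA1, AGR2 and SPDEF. All 10 were found in the expression table, on 14 of its 27832 features, and where a symbol had several features the one with the highest mean was taken. The 4 libraries came from Sprague-Dawley rats whose right middle ear was injected through the eardrum and whose mucosa was scraped from the bulla after 1 week. The conditions were MRSA + PA (both species together), MRSA (methicillin-resistant Staphylococcus aureus alone), PA alone and media (the culture medium alone, as vehicle control). Each condition is 1 library, and the sources do not say how many rats gave RNA to it, so no difference below could be set against the spread between replicates and no test was made. The age of the rats is not given, and the protocol label attached to all 4 samples describes only the MRSA injection, so that the inoculum was taken from the label of each sample.

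Mucus is a gel of very large glycoproteins that traps particles and bacteria. Goblet cells and submucosal glands secrete the gel-forming mucins, while other mucins stay anchored in the outer membrane of epithelial cells as part of the glycocalyx. Club cells are the non-ciliated secretory cells of the small airways and secrete uteroglobin. The middle ear is lined by a related epithelium, with ciliated and secretory cells toward the Eustachian tube and flat cells elsewhere, and mucin-rich effusion is a known feature of otitis media.

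Levels are in FPKM, which scales the fragments of a gene by its length and by the size of the library, so that genes can be compared with each other. Differences are log2 ratios taken with 0.1 FPKM added to each level, and those of at least 2-fold on that scale were counted. Folds given in words are plain ratios of FPKM. The share of all 15944 features averaging 1 FPKM or more that passed the same 2-fold rule stands beside the counts as background. All 10 genes passed this filter, although TFF3 passed it through the PA library only.

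The PA library held the highest level of 9 of the 10 genes, and the MRSA + PA library the lowest level of 7. Among all 15944 features, PA was highest for 31.6% and MRSA + PA lowest for 21.5%. The exception was CLCA1, which was highest in media. On division by general epithelium markers AGR2, SPDEF and MUC16 were no longer highest in PA. That division moved the median log2 ratio of all features in PA against media to -0.83. On division by EPCAM, KRT8, KRT18 and KRT19 alone, the log2 ratios in PA against media were 0.64 for AGR2, 0.58 for SPDEF and 0.08 for MUC16. Some of the lowest levels in MRSA + PA were close to the next, as for TFF3 (0.230 FPKM against 0.246 in media). The same held for CLCA1 (3.47 against 3.52 in MRSA) and MUC16 (1.55 against 1.70 in MRSA). Against media, 5 of the 10 genes were at least 2-fold higher in PA (MUC4, MUC5B, MUC5AC, TFF3 and SCGB1A1) and 1 was lower (CLCA1), beside 10.0% and 7.80% of all features. TFF3 is counted although it passed the filter through PA only, and the count higher in PA was also 5 with no filter. In MRSA, 3 were higher (MUC5AC, TFF3 and SCGB1A1) and 2 lower (MUC16 and CLCA1), beside 8.47% and 4.95% of all features. In MRSA + PA, 1 was higher (SCGB1A1) and 2 were lower (MUC16 and CLCA1), beside 7.78% and 7.83%. The median log2 ratio of the 10 genes against media was -0.54 with MRSA + PA, 0.58 with MRSA and 1.77 with PA, where the medians over all features were 0.05, 0.05 and 0.07. These 3 comparisons share the media library.

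**Figure D1:**
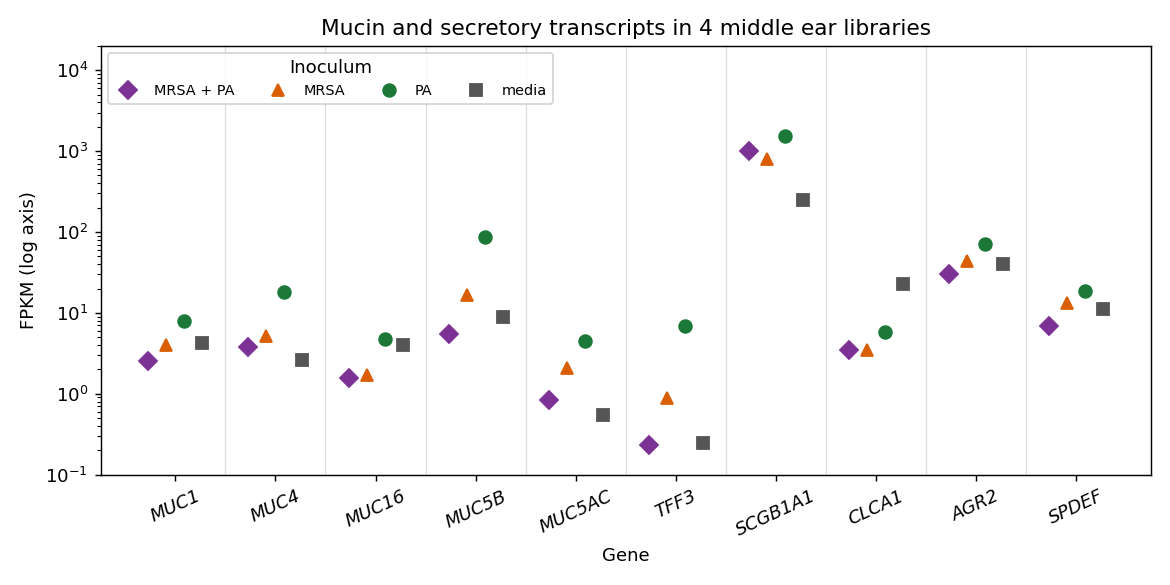
FPKM (log axis) of the 10 genes in the 4 libraries, ordered from membrane mucins through gel-forming mucins and small secreted proteins to AGR2 and SPDEF. Each symbol is 1 library, and no error can be drawn. The PA circle is the top symbol for every gene except CLCA1, where media stands at 22.6 FPKM against 3.47 to 5.88 FPKM in the inoculated libraries.

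The libraries differed in other tissue as well. General epithelium markers, such as EPCAM and KRT8, summed to 1508 FPKM in MRSA + PA, 1234 in MRSA, 2271 in PA and 1202 in media, and all 15 genes were at 1 FPKM or more in each of the 4 libraries. Markers of cornified squamous epithelium, the type of skin and the outer eardrum surface, summed to 1798 FPKM in PA and to between 3.53 and 11.9 FPKM in the others. Of the 7 such markers past the filter, 5 (KRT1, KRTDAP, FLG, SPRR1A and SBSN) passed it through PA only, so that the filter itself fixed their direction and no count is read from this list. Basal keratins, which are part of the general epithelium list, also stood higher in PA. KRT14 was at 256, 161, 483 and 136 FPKM in MRSA + PA, MRSA, PA and media. KRT5 was at 175, 95.4, 393 and 83.6 FPKM and KRT15 at 210, 133, 378 and 189 FPKM in that order. Most of the excess of the general sum in PA over media lay in these keratins. EPCAM was at 222, 266, 254 and 237 FPKM and KRT8 at 103, 96.2, 111 and 76.1 FPKM. Multiciliated cell markers summed to 258 FPKM in MRSA + PA, 501 in MRSA, 269 in PA and 517 in media. Skeletal muscle markers summed to 6.08, 3229, 12.9 and 8311 FPKM in the same order, and white blood cell markers to 4022, 4187, 2824 and 1445 FPKM. Of the gland markers, only AQP5 and CST3, which are not restricted to glands, exceeded 3 FPKM, while the secretory peroxidase LPO was at 2.99 FPKM in PA and at or near 0 elsewhere. The part that any of these tissues plays in the levels below was not tested, and in scraped tissue fewer cells of a type and less RNA per cell cannot be told apart.

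**Figure D2:**
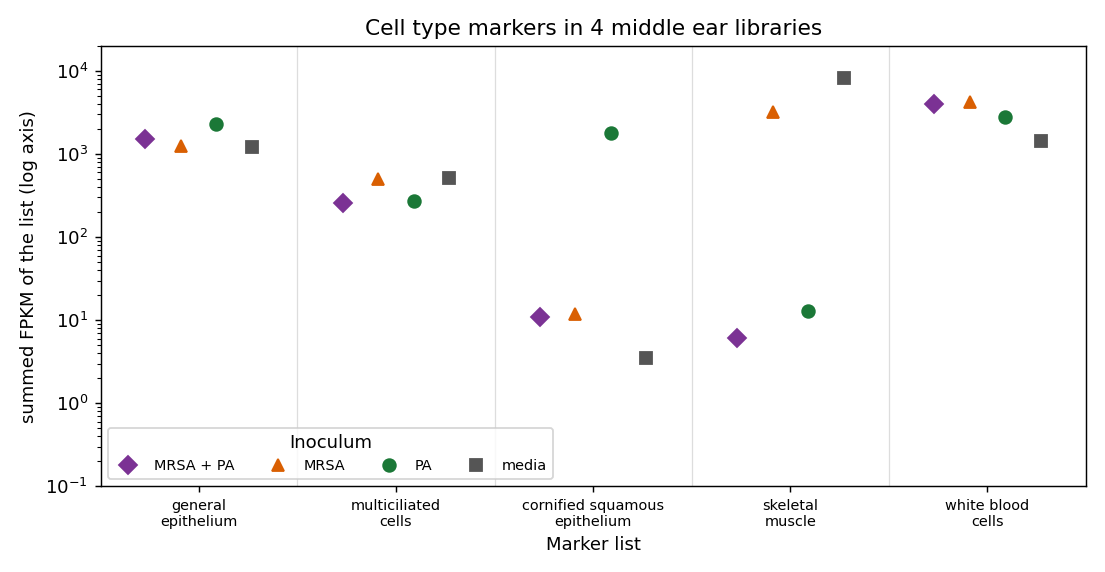
Summed FPKM (log axis) of 5 marker lists in the 4 libraries, with 1 symbol per library. Cornified squamous epithelium markers stand at 1798 FPKM in PA and at 11.9 FPKM or less elsewhere, and skeletal muscle markers at 6.08 FPKM in MRSA + PA, 3229 in MRSA, 12.9 in PA and 8311 in media.

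Among the membrane mucins, MUC4 differed from media in PA, MUC16 in MRSA and MRSA + PA, and MUC1 in none of the inocula at 2-fold. MUC4 (feature at chr11:74327777-74369855) is a large mucin of epithelial surfaces that can bind the receptor ERBB2. It had 3.82 FPKM in MRSA + PA, 5.19 in MRSA, 18.3 in PA and 2.64 in media. The PA level was 6.94-fold that of media, while MRSA fell just short of the threshold, at a log2 ratio of 0.95. MUC16 (chr8:18505434-18573453), the mucin known as CA125, had 1.55 FPKM in MRSA + PA, 1.70 in MRSA, 4.74 in PA and 4.03 in media. It thus split the libraries, with MRSA + PA 2.60-fold and MRSA 2.37-fold lower than media and PA close to media. Both differences fell just short of 2-fold with 1 FPKM added, at log2 ratios of -0.98 in MRSA + PA and -0.90 in MRSA. The other 2 features of this name, which lie next to it on chromosome 8, were at 0.543, 0.505, 1.42 and 0.820 FPKM and at 0.331, 0.141, 0.874 and 0.358 FPKM in the same order. MUC1 (chr2:207957655-207962391), a short mucin with a signalling tail, had 2.56 FPKM in MRSA + PA, 4.01 in MRSA, 8.03 in PA and 4.22 in media. Its log2 ratios to media were -0.70, -0.07 and 0.91 in MRSA + PA, MRSA and PA.

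Both gel-forming mucins ran in the same order across the inocula, with PA above MRSA and MRSA above MRSA + PA. MUC5B (chr1:221691846-221724637), the main gel-forming mucin of the healthy airway and needed in mice for clearance of the middle ear, had 5.40 FPKM in MRSA + PA, 16.5 in MRSA, 86.1 in PA and 8.82 in media. It was 9.76-fold higher in PA than in media and 1.87-fold higher in MRSA, whereas MRSA + PA was 1.63-fold lower than media. MUC5AC (chr1:221662501-221671957), the goblet cell mucin that rises in airway inflammation, had 0.847 FPKM in MRSA + PA, 2.07 in MRSA, 4.55 in PA and 0.551 in media. All 3 inoculated libraries were above media, by 1.54-fold, 3.76-fold and 8.26-fold in that order. The media level is under 1 FPKM, and with 1 FPKM added the log2 ratio was 0.98 in MRSA (main 1.74), short of 2-fold, and 1.84 in PA (main 2.84). Both genes lie in a cluster on chromosome 1, with the MUC5B feature starting 19889 bases after the end of that of MUC5AC, and such paralogs have repeats that short reads can share. The table splits MUC5AC into 3 features, so that the value covers part of the gene. Of the 2 features not used, the first was at 0.637 FPKM in PA and listed at 0 in the other 3 libraries. The other was at 0.167 FPKM in MRSA, 1.08 in PA, 0.0172 in media and listed at 0 in MRSA + PA. On this scale per length, MUC5B exceeded MUC5AC in every library, by 6.38 times in MRSA + PA, 7.97 in MRSA, 18.9 in PA and 16.0 in media.

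TFF3 (chr20:12030960-12035618), a small trefoil peptide that goblet cells release with mucin and that takes part in epithelial repair, had 0.230 FPKM in MRSA + PA, 0.887 in MRSA, 6.87 in PA and 0.246 in media. Its ratio of PA to media, 27.9-fold, was the largest among the 10 genes, but it starts from a media value under 1 FPKM. With 1 FPKM added in place of 0.1 its log2 ratio in PA was 2.66 (main 4.33) and in MRSA 0.60 (main 1.51).

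SCGB1A1 and CLCA1 differed from media in all 3 inocula, in opposite directions. SCGB1A1 (chr1:232216740-232220289), the club cell protein uteroglobin, had 1000.0 FPKM in MRSA + PA, 807 in MRSA, 1537 in PA and 248 in media. It was the most abundant of the 10 genes in every library and was 4.04-fold higher than media in MRSA + PA, 3.26-fold in MRSA and 6.20-fold in PA. CLCA1 (chr2:269425677-269451501), a protease that goblet cells secrete with mucus and that interleukin-13 induces in airways, had 3.47 FPKM in MRSA + PA, 3.52 in MRSA, 5.88 in PA and 22.6 in media. The inoculated libraries were 6.52-fold, 6.42-fold and 3.85-fold lower than media in that order. The log2 ratio of SCGB1A1 to media lay between 1.57 and 2.80, and that of CLCA1 between -3.00 and -1.76, over the 3 inocula and all scalings and added values tried.

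**Figure D3:**
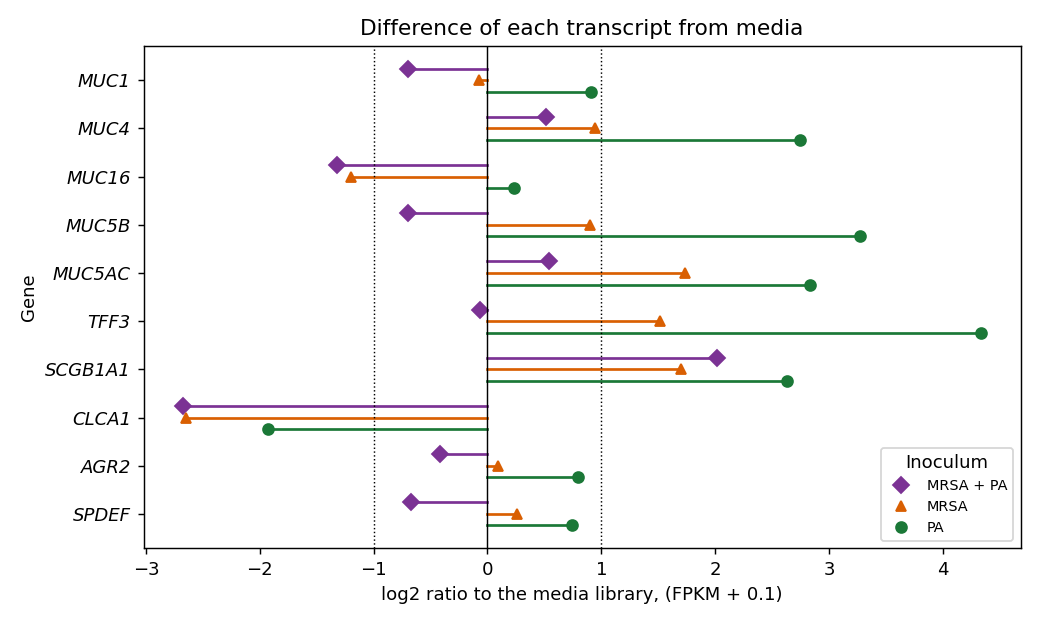
Log2 ratio to the media library of each gene for MRSA + PA, MRSA and PA, with 0.1 FPKM added to each level and dotted lines at 2-fold. Each symbol is 1 library against 1 library. SCGB1A1 lies right of the line and CLCA1 left of it with all 3 inocula, while MUC5B runs from -0.70 in MRSA + PA to 3.27 in PA.

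Since these genes stood apart from media in opposite directions, their promoter sequence from RefSeq (rat build GRCr8) is shown, with that of TFF3, whose ratio to media was the largest in PA. Promoters of 7 of the 10 genes were matched by symbol in the RefSeq table used. The 250 bases before the annotated start were searched on both strands for TATAAA (the TATA box), TNTTTAC (a core of forkhead factors such as FOXA1 and FOXA2) and GGAAG (the core of ETS factors, the family of SPDEF). Matches are in capitals, and no match overlapped another in the promoters shown. The windows are chr1:215409687-215409936 (minus strand) for SCGB1A1, chr2:236624715-236624964 (minus strand) for CLCA1 and chr20:9199334-9199583 (minus strand) for TFF3.
SCGB1A1: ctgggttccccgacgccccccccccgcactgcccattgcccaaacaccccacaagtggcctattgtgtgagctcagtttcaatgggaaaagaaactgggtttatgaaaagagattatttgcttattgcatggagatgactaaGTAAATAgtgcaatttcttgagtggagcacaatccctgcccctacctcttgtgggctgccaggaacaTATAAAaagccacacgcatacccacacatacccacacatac
CLCA1: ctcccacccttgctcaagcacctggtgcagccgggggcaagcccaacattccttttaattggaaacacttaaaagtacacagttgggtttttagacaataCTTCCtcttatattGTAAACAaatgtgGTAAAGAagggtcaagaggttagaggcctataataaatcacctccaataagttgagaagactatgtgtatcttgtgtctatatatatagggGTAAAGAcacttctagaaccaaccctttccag
TFF3: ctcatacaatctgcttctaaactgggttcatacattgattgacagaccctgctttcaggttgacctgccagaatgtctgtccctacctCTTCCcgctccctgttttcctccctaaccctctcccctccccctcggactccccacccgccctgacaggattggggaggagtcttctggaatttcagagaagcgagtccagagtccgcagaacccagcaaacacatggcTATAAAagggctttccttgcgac
SCGB1A1 has a TATA box that begins 41 bases before the start and a forkhead match at 108 bases. CLCA1 has 3 forkhead matches, which begin 136, 123 and 32 bases before the start, an ETS match at 150 bases and no TATAAA. TFF3 has a TATA box at 23 bases and an ETS match at 162 bases. Of the 7 promoters, 3 hold TATAAA, 4 TNTTTAC and 5 GGAAG, and of all 33469 rat promoters of this length the shares are 12.9%, 11.6% and 63.3%. A match is a string of letters and was not tested as a binding site.

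AGR2 and SPDEF, which belong to the making of mucin rather than to mucus itself, varied less. AGR2 (chr6:65081213-65102519), a disulfide isomerase needed in mice for the folding of intestinal mucin, had 30.5 FPKM in MRSA + PA, 43.2 in MRSA, 70.7 in PA and 40.6 in media. SPDEF (chr20:9495176-9509670), an ETS factor that drives goblet cell differentiation, had 6.92 FPKM in MRSA + PA, 13.2 in MRSA, 18.5 in PA and 11.05 in media. No inoculum was 2-fold from media for either gene, the nearest being PA, 1.74-fold higher for AGR2 and 1.67-fold for SPDEF. MUC5B was at 4.65 times the level of SPDEF in PA and at 0.781 times in MRSA + PA, 1.25 in MRSA and 0.798 in media.

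The mixed inoculum was also set directly against each species alone. MRSA + PA was below PA for 10 of the 10 genes, under every scaling tried, and at least 2-fold lower for 8 of them, beside 4.27% of all features. The median log2 ratio was -1.58, against -0.03 over all features. MUC5B was 15.9-fold and TFF3 29.8-fold lower in MRSA + PA than in PA, the second from 0.230 FPKM in MRSA + PA and with a log2 ratio of -2.68 (main -4.40) when 1 FPKM was added, while SCGB1A1 and CLCA1 were within 2-fold. Against MRSA, MRSA + PA was at least 2-fold lower for MUC5B, MUC5AC and TFF3, so for 3 of the 10, beside 5.73% of all features. With 1 FPKM added, MUC5AC and TFF3 were within 2-fold there, at log2 ratios of -0.73 and -0.62, and MUC5B was at -1.45. SCGB1A1 was the 1 gene higher in MRSA + PA, at 1.24-fold, although CLCA1 joined it on division by EPCAM, KRT8, KRT18 and KRT19 (log2 ratio 0.07) and MUC16 when its features were summed (0.04). With either species alone as the comparison, no gene reached 2-fold higher in MRSA + PA, beside 1.61% of all features against MRSA and 2.50% against PA. Between the single species, MRSA was below PA for all 10 genes, except that AGR2, CLCA1 and SPDEF were above PA on division by general epithelium markers (log2 ratios 0.17, 0.14 and 0.39), and at least 2-fold lower for 5 (MUC4, MUC5B, MUC5AC, MUC16 and TFF3), beside 3.54% of all features. With 1 FPKM added, MUC5AC was within 2-fold of PA, at -0.85. The counts lower than PA include TFF3, which passed the filter through PA only. No gene was at least 2-fold higher in MRSA than in PA, beside 5.03%.

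Because the sums of epithelium markers differed between libraries, each library was also divided by its sum. With the general list, the median log2 ratio of all features in PA moved to -0.83 (main 0.07). MUC4, MUC5B, MUC5AC, TFF3 and SCGB1A1 were again higher in PA, with log2 ratios of 1.84 for MUC4, 2.36 for MUC5B, 1.98 for MUC5AC, 3.51 for TFF3 and 1.71 for SCGB1A1. On that scale MUC1 stood at 0.01 in PA, while AGR2 at -0.12, SPDEF at -0.17 and MUC16 at -0.67 had changed side. Of the 10 genes, those at least 2-fold lower in MRSA + PA than in PA were 5 (main 8), and in MRSA than in PA 2 (main 5). The shares of all features lower on that scale were 2.21% (main 4.27%) and 1.57% (main 3.54%) in that order. Division by EPCAM, KRT8, KRT18 and KRT19 alone, chosen after the data were seen, left all 12 counts as they were.

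Of the 17 symbols on a textbook list of other mucins, 10 are in the table and 6 passed the filter, MUC13 through PA only. With PA, 2 exceeded media at least 2-fold and 0 were lower, beside 10.0% and 7.80% of all features, and the count of 6 genes is too small to set against these shares. The 2 were MUC13, a membrane mucin, at 0.507 FPKM in MRSA + PA, 0.970 in MRSA, 3.40 in PA and 0.414 in media, and MUC12, another, at 0.497, 1.67, 2.81 and 0.921 FPKM in the same order. MUC13 was also the 1 gene past 2-fold in MRSA, and none was in MRSA + PA. MUC20 was at 3.55, 3.82, 5.18 and 4.27 FPKM. CD164 (endolyn) was at 260, 233, 263 and 218 FPKM, and EMCN, a sialomucin of vessels rather than epithelium, at 45.1, 32.6, 29.98 and 52.5 FPKM. MUC6 and MUC19, gel-forming mucins of stomach and salivary gland, were at 0.0333 FPKM or less in each library, and MUC17 was listed at 0.

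Other products of goblet, club and mucous cells went both ways. Of 20 past the filter, 2 were higher and 8 lower than media by 2-fold with MRSA + PA, beside 7.78% and 7.83% of all features. With MRSA 5 were higher and 4 lower, beside 8.47% and 4.95%, and with PA 8 and 5, beside 10.0% and 7.80%. SCGB3A2 and CYP2F2 differed from media in the direction opposite to SCGB1A1, and are set beside it after their values were seen. SCGB3A2, a related secretoglobin, had 103 FPKM in MRSA + PA, 123 in MRSA, 118 in PA and 249 in media. CYP2F2, a cytochrome P450 that marks club cells in mice, had 4.86, 4.601, 5.41 and 27.9 FPKM in the same order. Both were thus at least 2-fold lower than media in every inoculated library, where SCGB1A1 was higher. ALDH3A1, also on the list, was lower in the same way, at 20.7, 24.9, 23.1 and 54.6 FPKM in that order. Others did not share this pattern. SCGB1C1, another secretoglobin, was 2.04-fold higher than media in MRSA, and GABRP, a GABA receptor subunit, was 1.94-fold, 1.67-fold and 3.99-fold higher in MRSA + PA, MRSA and PA. SCGB1A1 stood at 9.69 times SCGB3A2 in MRSA + PA, 6.56 in MRSA, 13.0 in PA and 0.993 in media.

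CHIA, a secreted chitinase (the higher of 2 features), came close to MUC5AC in its pattern, with 49.8 FPKM in MRSA + PA, 108 in MRSA, 278 in PA and 37.0 in media. RETNLA, a resistin-like protein of type 2 responses in rodents (the higher of 2 features), had 14.7, 36.4, 5.51 and 71.6 FPKM in the same order and was lowest in PA. ITLN1, a lectin of goblet cells, had 45.1, 144, 3.81 and 22.2 FPKM, so that MRSA and PA lay on opposite sides of media. TSPAN8, a membrane protein of secretory epithelia, was near 153 to 195 FPKM in all 4 libraries. SCGB3A1 had 0.558 FPKM in MRSA + PA, 1.41 in PA and 2.90 in media and was listed at 0 in MRSA. Of the goblet genes of the gut, ZG16 and RETNLB were listed at 0 in all 4 libraries.

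**Figure D4:**
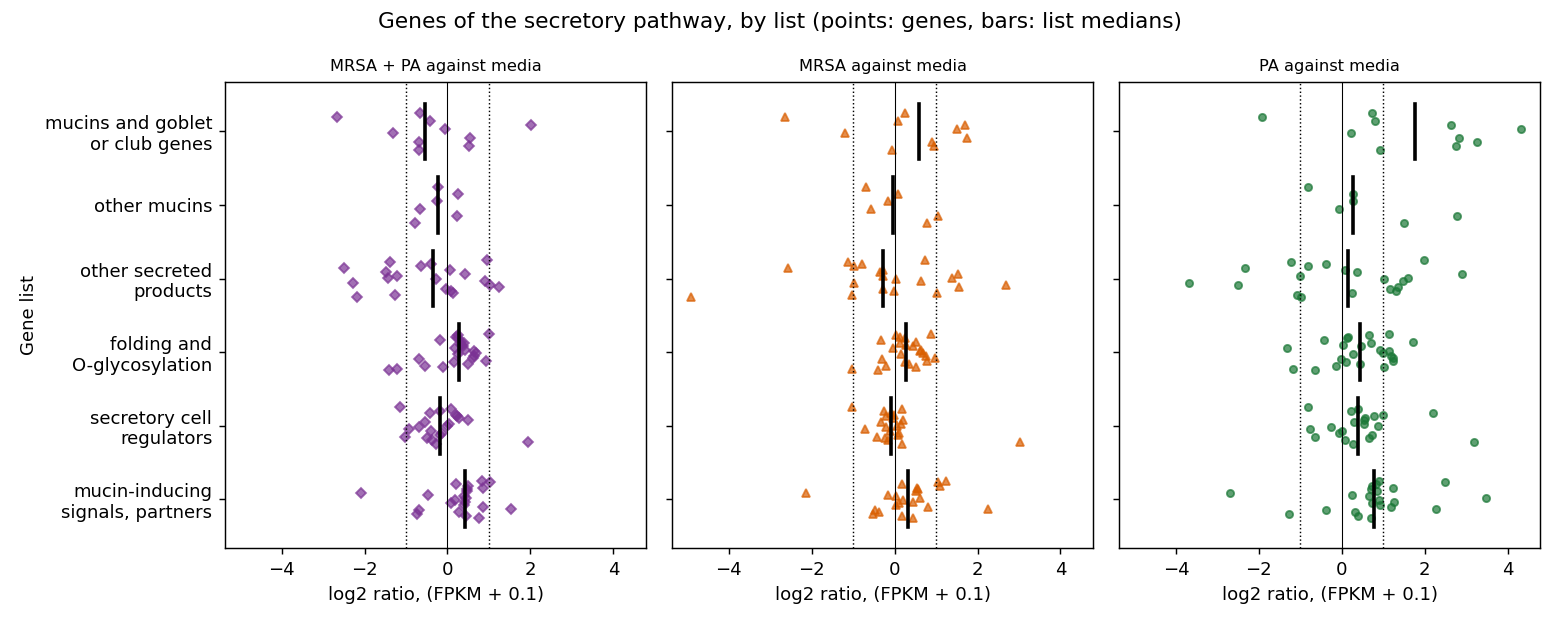
Log2 ratio to media (with 0.1 FPKM added) of the 10 genes and of 5 other lists of the secretory pathway, in MRSA + PA, MRSA and PA. Each point is a gene past the filter, black bars are list medians and dotted lines mark 2-fold. The bar of the 10 genes moves from -0.54 in MRSA + PA to 1.77 in PA, while those of the other lists stay between -0.34 and 0.78.

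Among 24 genes for folding and glycosylation of mucins past the filter, 7 were higher and 2 lower than media in PA, beside 10.0% and 7.80% of all features. In MRSA + PA 0 were higher and 2 lower, beside 7.78% and 7.83%, and in MRSA 0 and 1, beside 8.47% and 4.95%. The 7 in PA were GALNT3, GALNT6 and GALNT7, which attach the first sugar, C1GALT1, which extends it, FUT2, the fucosyltransferase of secretors, CREB3L4 and STXBP2. Their log2 ratios lay between 1.03 (CREB3L4) and 1.71 (FUT2). Division by general epithelium markers multiplied PA by 0.661 and media by 1.25, under which all 7 fall short of 2-fold. Of all features, 3.99% were at least 2-fold higher in PA on that scale. The list was otherwise not recounted after that division. FUT2 had 2.92 FPKM in MRSA + PA, 3.36 in MRSA, 7.78 in PA and 2.303 in media. AGR3, a relative of AGR2, was at 1.77, 3.65, 3.05 and 4.82 FPKM across those libraries, and GCNT4 (the higher of 2 features), a branching enzyme, at 2.13, 1.81, 0.688 and 1.88 FPKM. The abundant members XBP1, a factor of secretory cells, ST3GAL4, a sialyltransferase, and VAMP8, a granule fusion protein, differed from media by at most 1.45-fold.

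FOXA2 was the regulator of secretory cells past 2-fold above media with all 3 inocula. FOXA2, a forkhead factor of airway epithelium, had 0.720 FPKM in MRSA + PA, 1.64 in MRSA, 1.86 in PA and 0.115 in media, low values in each library. Its media level is close to the 0.1 FPKM added, so that its ratios depend on that setting. Of the 21 regulators past the filter, 1 was higher and 2 lower than media in MRSA + PA, 1 and 1 in MRSA, and 3 and 0 in PA. With background shares of 7.78% and 7.83%, 8.47% and 4.95%, and 10.0% and 7.80%, these counts do not set the list apart. GRHL1, a grainyhead factor of surface epithelium, was at 1.59, 2.03, 10.2 and 2.16 FPKM across those libraries, and NR2F1, a nuclear receptor, at 22.5, 24.4, 28.3 and 50.1 FPKM. HES1, a target of Notch, was at 41.6, 48.5, 46.6 and 79.7 FPKM, whereas ELF3 and STAT6 differed from media by at most 1.31-fold. NKX2-1, which drives SCGB1A1 in the lung, did not exceed 0.190 FPKM in any library, and is named here after its values were seen.

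Among signals that induce mucins and the partners of membrane mucins, 2 of 22 were higher and 1 lower than media in MRSA + PA, beside 7.78% and 7.83% of all features. In MRSA 4 were higher and 1 lower, beside 8.47% and 4.95%, and in PA 6 and 2, beside 10.0% and 7.80%, with EREG past the filter through PA only. IL13 was listed at 0 in all 4 libraries and IL4 was at 0.189 FPKM or less. IL17A, also on this list, had 5.07 FPKM in MRSA + PA, 8.49 in MRSA, 8.58 in PA and 1.69 in media. IL17A was at least 2-fold higher than media with each inoculum, and is named here after its values were seen. ALOX15, a lipoxygenase that interleukin-13 induces in human airway cells, had 2.58 FPKM in MRSA + PA, 2.48 in MRSA, 1.66 in PA and 11.3 in media. It was thus lower than media with each inoculum, as CLCA1 was. EREG (epiregulin), a ligand of the EGF receptor, had 0.542, 0.620, 5.19 and 0.375 FPKM, and DUOX2, an oxidase of mucosal surfaces, 5.29, 5.38, 14.7 and 2.53 FPKM in the same order. MSLN (mesothelin), which binds MUC16, was at 312, 247, 404 and 171 FPKM, and LGALS3 (galectin-3), which binds mucin glycans, at 303, 458, 358 and 215 FPKM. IL33, an epithelial alarmin, was at 210, 134, 214 and 172 FPKM.

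The features most like each gene over the 4 libraries were sought among 1753 or 1754 named features that averaged 5 FPKM or more and ranged over at least 2-fold, by the root mean square distance of centred log2 profiles. A likeness over 4 libraries is weak and says nothing of shared control. MUC5AC was nearest to CHIA, at a distance of 0.10, and CLCA1 to CYP2F2, at 0.23, and to S100B, at 0.24. MUC4 was nearest to CXCL5, a chemokine for neutrophils, at 0.13. MUC5B had no feature within 0.25, its nearest being SERPINB4 at 0.46 and LCN2 at 0.49, and TFF3 was nearest to MUC5B, at 0.38. MUC1 was nearest to CST6, at 0.08, with AGR2 next at 0.15. AGR2, for which 28 features lay within 0.25, had MFSD6 nearest at 0.09, and SCGB1A1, with 25, had a T cell receptor segment (TCRB) at 0.06 and C3 at 0.10. SPDEF was nearest to CH047_MOUSE, at 0.14, and had AGR2 at 0.15, and MUC16 was nearest to CYB5R2, at 0.16.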

How the data were processed

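RNA of scraped middle ear mucosa was sequenced by the authors, with 1 library for each of MRSA + PA, MRSA, PA and media. The deposited FPKM values were made by the authors from quality-filtered reads, mapped with STAR 2.3.0e and measured in Cufflinks 2.1.1 with masking of non-coding regions, multi-read correction and fragment bias correction (the submitters' processing notes list these tools and edgeR). A human reference is named in the study's methods, whereas the features lie on rat chromosomes and the table names no build, so that positions are as the table gives them. Masking and bias correction can change a level, and features that split a gene lower it. The authors' deposited comparison tables hold their own log2 ratios, p-values and q-values, and 12 columns that give the same libraries again. None was used.

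FPKM keeps no fragment counts, so that no interval can be put around a value. Steps between low values put the depth of the inoculated libraries at 1.08 to 1.16 times that of media. The symbols were matched in any case, and the 10 genes and all lists were chosen with earlier results of these data known. Named are the 10 genes and, in each other list, the 3 genes highest in mean FPKM and the 3 furthest from media, with up to 3 nearest profiles a gene (those averaging 5 FPKM or more). Other genes named were chosen after their values were seen. No library was left out. Alternatives were 1 or 0.01 FPKM added, median-of-ratios scaling, equal FPKM sums over features of at least 300 bp, division by epithelium markers, an average of 5 FPKM or none as the filter, a 1.5-fold or 3-fold rule, and the sum of all features of a symbol. The arithmetic was tested on simulated data. Python 3.11.15 with numpy 2.4.6, pandas 2.3.3 and matplotlib 3.10.9 was used.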

Additional observations from a re-analysis of the deposited data

How the results depend on the processing

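No paired analysis was possible because each condition has 1 library, and for the same reason no library could be left out of a group. The counts of genes at least 2-fold from media, or between inocula, were unchanged or within 1.5 times under 0.01 FPKM added, median-of-ratios scaling, equal FPKM sums, no filter and the sum of all features of a symbol, and no log2 ratio past 2-fold changed sign under any alternative. With 1 FPKM added, the genes lower were 1 in MRSA + PA and 1 in MRSA against media and 1 in MRSA + PA against MRSA, and those higher in MRSA than in media 1. The shares of all features with that setting were 5.75%, 3.51%, 3.72% and 5.88% in that order. Divided by general epithelium markers, the genes lower were 4 in MRSA + PA against media, 5 in MRSA + PA against PA and 2 in MRSA against PA, beside 12.5%, 2.21% and 1.57% of all features. Among the 6 genes with a mean of at least 5 FPKM, 3 were higher in PA and 1 in MRSA than in media, and the lower ones were 1 in MRSA + PA and 1 in MRSA against media, 1 in MRSA + PA against MRSA, 4 in MRSA + PA against PA and 2 in MRSA against PA, since fewer genes were counted. No share of all features was taken with that filter. At 1.5-fold, 5 were lower in MRSA + PA, 5 higher in MRSA and 8 higher in PA than in media, 5 lower in MRSA + PA than in MRSA and 9 lower in MRSA than in PA. The shares of all features under that rule were 14.3%, 14.9%, 18.7%, 10.6% and 7.78% in that order. At 3-fold, 1 was lower in MRSA + PA and 1 in MRSA than in media, 1 in MRSA + PA than in MRSA, 5 in MRSA + PA than in PA and 3 in MRSA than in PA. Of all features, 4.14%, 1.77%, 2.95%, 2.17% and 1.89% were lower under that rule, in that order. Of the 60 log2 ratios of single genes, 25 moved by more than 1.5-fold on division by general epithelium markers and 8 with 1 FPKM added. Equal FPKM sums put 66.6% of all calls in PA against media on the higher side (main 56.3%), and division by general epithelium markers 9.74%, or 29.9% in MRSA + PA (main 49.8%). That division put 10.9% on the higher side in MRSA + PA against MRSA (main 21.9%), 81% in MRSA + PA against PA (main 36.9%) and 95.6% in MRSA against PA (main 58.7%). Levels under 1 FPKM, as for TFF3 outside PA, rest on an unknown number of fragments.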
